A study of Mus musculus with 10 samples.

Results

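The genes of the proteasome were followed in mouse plantaris muscle through overload with and without a drug that blocks platelet-derived growth factor (PDGF) signals. They were taken as every gene whose annotated symbol is Psma, Psmb, Psmc, Psmd or Psme followed by a number, pseudogenes left out. That gave 44 of the 22180 genes that the array reads through a probe set with exactly 1 symbol. Of these, 14 encode the 20S core, 4 the immunoproteasome and thymus catalytic subunits, 6 the 19S ATPases, 11 the other 19S subunits, 3 the 19S assembly chaperones and 4 the activators. The last 2 symbols, Psmc3ip and Psme3ip1, name proteins that are no subunit and are described apart. Psma4, the seventh alpha subunit of the somatic core, has only probe sets that also carry a second symbol, so it was not counted.

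Plantaris muscles of male C57BL/6 mice were overloaded by synergist ablation, the surgical removal of the muscles that work with the plantaris, and 5 groups were compared. The 10 d inhibitor and 3 d inhibitor groups were overloaded for 10 or 3 days in mice given the PDGF inhibitor, which the labels do not name, and the 10 d overload and 3 d overload groups were overloaded for the same times without it. The no overload group had neither. Each group had 2 arrays, each hybridised with equal amounts of RNA from 4 muscles pooled, so n = 2 pools throughout and the spread between animals is not seen. No group had the inhibitor without overload, and nothing in the labels says that the pools of a group came from separate batches of animals, so p-values measure the spread between pools only.

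The proteasome is the protease that degrades ubiquitin-tagged proteins. Its 20S core is a barrel of alpha and beta rings, in which Psmb5, Psmb6 and Psmb7 encode the catalytic subunits of most cells. The 19S cap holds a ring of ATPases that unfolds substrates, and a lid that removes their ubiquitin. Interferon gamma induces Psmb8, Psmb9 and Psmb10, which replace the standard catalytic subunits in the immunoproteasome, and Psme1 and Psme2, the subunits of the activator PA28. In skeletal muscle the ubiquitin-proteasome system is known for its part in fibre atrophy, and it also serves the protein turnover of remodelling.

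The start regions of 5 genes named in the results below are given, and their part in the expression changes was not tested. Psmd11 and Psmd14 were the members with the largest increases at 3 d of overload, Psme4 was the one that fell in both 3 d groups, and Psmb8 and Psmb9 are interferon-responsive in mouse. Each region covers 250 bases before to 50 bases after the annotated RefSeq start on GRCm38.p6, read 5′ to 3′ on the gene's own strand. The windows are chr11:80428365-80428664 (plus strand), chr2:61711444-61711743 (plus), chr11:30771525-30771824 (plus), chr17:34197945-34198244 (plus) and chr17:34187281-34187580 (minus). Capitals mark matches to any of 4 motifs searched on both strands.
Psmd11: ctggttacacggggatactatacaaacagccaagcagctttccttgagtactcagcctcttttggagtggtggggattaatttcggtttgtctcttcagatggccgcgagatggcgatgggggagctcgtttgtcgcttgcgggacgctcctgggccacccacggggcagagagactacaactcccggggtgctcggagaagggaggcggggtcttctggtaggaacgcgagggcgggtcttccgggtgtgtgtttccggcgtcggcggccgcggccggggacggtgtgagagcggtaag
Psmd14: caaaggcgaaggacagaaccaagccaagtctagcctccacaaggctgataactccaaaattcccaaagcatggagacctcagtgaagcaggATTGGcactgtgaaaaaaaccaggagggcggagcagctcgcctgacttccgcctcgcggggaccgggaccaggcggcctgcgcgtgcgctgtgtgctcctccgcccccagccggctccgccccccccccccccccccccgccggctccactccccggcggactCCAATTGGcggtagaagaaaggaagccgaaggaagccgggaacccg
Psme4: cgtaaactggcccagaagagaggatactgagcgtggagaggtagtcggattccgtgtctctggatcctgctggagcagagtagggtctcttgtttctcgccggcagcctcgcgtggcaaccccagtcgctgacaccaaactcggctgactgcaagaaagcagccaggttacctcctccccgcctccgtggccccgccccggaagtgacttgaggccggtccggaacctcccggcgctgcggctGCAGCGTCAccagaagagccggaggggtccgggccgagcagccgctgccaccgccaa
Psmb8: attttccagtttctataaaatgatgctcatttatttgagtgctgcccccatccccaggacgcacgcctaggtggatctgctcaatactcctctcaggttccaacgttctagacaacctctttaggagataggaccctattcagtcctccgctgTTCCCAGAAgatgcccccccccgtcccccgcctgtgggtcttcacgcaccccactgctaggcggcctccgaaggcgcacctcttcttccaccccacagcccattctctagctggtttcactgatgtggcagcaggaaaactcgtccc
Psmb9: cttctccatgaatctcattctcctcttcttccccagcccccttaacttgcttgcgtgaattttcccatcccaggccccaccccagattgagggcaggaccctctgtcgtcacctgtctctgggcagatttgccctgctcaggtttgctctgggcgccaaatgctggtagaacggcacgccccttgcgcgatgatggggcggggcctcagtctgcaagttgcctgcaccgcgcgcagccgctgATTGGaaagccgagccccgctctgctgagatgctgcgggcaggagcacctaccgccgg

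The motifs were the core of the antioxidant response element TGACNNNGC, to which factors of the Nfe2l1 family bind, the core of the interferon-stimulated response element, the gamma-activated site TTCNNNGAA and the CCAAT box. Of the 44 genes, 37 had such a window. The capitals are CCAAT boxes in Psmd14 and Psmb9, 2 of those in Psmd14 being on opposite strands and overlapping, an antioxidant response element core in Psme4 and a gamma-activated site in Psmb8, and Psmd11 held none of the 4. TGACNNNGC was in the windows of 6 subunit genes (Psmb5, Psmb6, Psmc6, Psmd12, Psmd9 and Psme4), 15.8% of their 38 windows, where 12.4% of the 32851 windows of all genes held it. The gamma-activated site was in 2 (Psmb8 and Psmd2), 5.26% against 8.3%, and the interferon-stimulated element in 4 (Psmb3, Psmd4, Psmd9 and Psme1), 10.5% against 3.44%. CCAAT was in 36.8% against 37.4%. Psmd11, Psmd14, Psmd8, Psmd13 and Psmd5 thus had neither interferon motif and no antioxidant response element core in these letters within these windows.

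Values are log2 expression from robust multi-array averaging (RMA) as deposited, so a difference of 1 is a doubling. Most proteasome genes were read by probe sets that were bright on this array, which is a fact of the signal and not a ranking of expression, since probes differ in brightness. The median gene of the array stood at 3.13, 40 of the 44 were above it, and 23 were in the top 10%, with a median percentile of 92.4. The 4 at or below the median gene were Psma8, the testis alpha subunit (mean 1.31, over 10 pools), Psmb11, the thymus catalytic subunit (1.37), Psma5 (2.98) and Psmc3ip (2.86). Psma5 encodes a subunit that every core contains, and its probe sets were dim, so its values say little. All 44 moved by less than 1 log2 unit between their highest and lowest group means, and 29 by less than 0.5. Their median span was 0.39, against 0.482 for all genes and 0.577 for genes above the median gene.

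**Figure D1:**
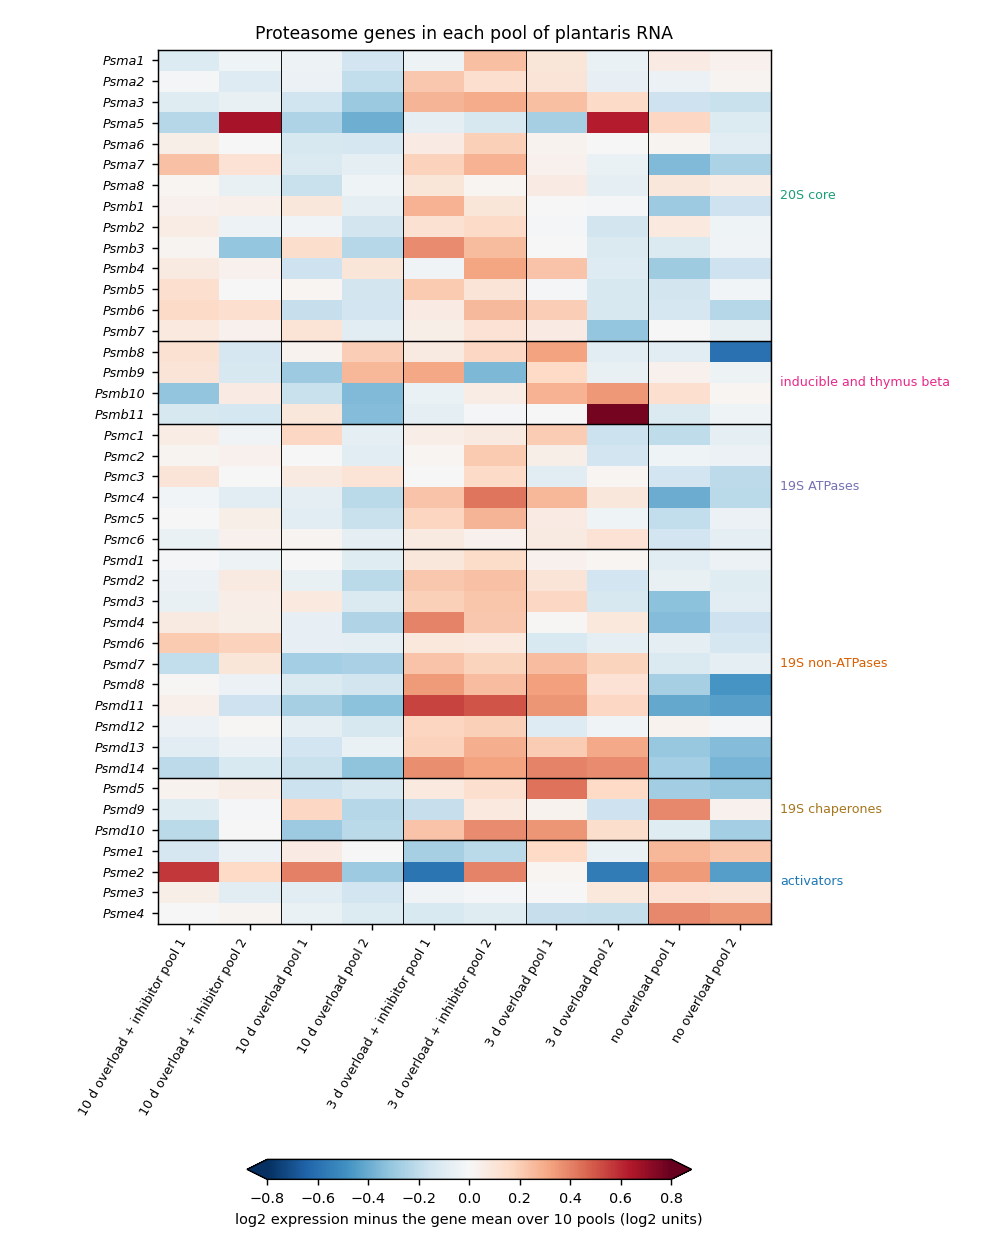
Log2 expression of the 42 proteasome genes (rows) in each of the 10 pools (columns), as the difference from the gene's mean over all pools, with red above and blue below it. The 3 d pools with and without the inhibitor are red for most of the 19S non-ATPase rows, Psme4 is red in both no overload pools, and the dim Psma5, Psmb11 and Psme2 differ most between pools of 1 group.

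At 3 d of overload the genes that rose were 4 lid genes (Psmd11, Psmd14, Psmd8 and Psmd13) and the assembly chaperone gene Psmd5. Against no overload, 5 of the 44 were higher and 1 lower at a Benjamini-Hochberg adjusted p under 0.05 (limma, adjusted over all 22180 genes). Of the 44, 11 had an unadjusted p under 0.05, as did 6489 of the 22180 genes. The 6 that were called are 13.6% of the members, where 17.5% of all genes were called. The 5 are 11.4%, where 9.31% of all genes were called higher, and the 1 is 2.27%, where 8.18% were called lower. These shares are near or below the background, so in this fit the number of members called is not a feature of the proteasome genes. With limma's trend and robust prior, 29.5% of the members and 21% of all genes were called. Among genes above the median gene, tested alone, 25% of the members and 40.6% of all genes were called in either direction. Of the 44 changes 31 were above 0, where 45% of all genes had a change above 0. The median change was 0.14 over the members and -0.04 over all genes.

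Psmd11 encodes Rpn6, a lid subunit that clamps the cap to the core. Its log2 level was 9.58 and 9.37 in the 10 d inhibitor pools, 9.27 and 9.21 in the 10 d overload pools, 10.08 and 10.04 in the 3 d inhibitor pools, 9.89 and 9.71 in the 3 d overload pools and 9.13 and 9.10 in the no overload pools. The 3 d pools with and without the inhibitor lay above all others, with no overlap. The increase over no overload was 0.94 ± 0.14 (SE) with the inhibitor (limma, adjusted p = 0.0031) and 0.69 ± 0.14 without it (adjusted p = 0.00924). Without the first 3 d overload pool the increase in the 3 d overload group had an adjusted p of 0.0688. Psmd14 encodes Rpn11, the deubiquitinase of the lid. Its level was 6.44 and 6.53 in the 10 d inhibitor pools, 6.47 and 6.33 in the 10 d overload pools, 7.02 and 6.97 in the 3 d inhibitor pools, 7.04 and 7.03 in the 3 d overload pools and 6.38 and 6.28 in the no overload pools. Both 3 d groups again lay above the other 3 without overlap, by 0.67 ± 0.13 with the inhibitor (limma, adjusted p = 0.00977) and 0.71 ± 0.13 without it (adjusted p = 0.00576) relative to no overload. Psmd14 was called at 3 d of overload under each of the 16 alternative settings, pools left out included. The call in the 3 d inhibitor group was lost without the first 3 d inhibitor pool and without the second no overload pool.

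Psmd8 and Psmd13, which encode the lid subunits Rpn12 and Rpn9, also rose in both 3 d groups. Psmd8 was at 9.72 and 9.66 in the 10 d inhibitor pools, 9.59 and 9.56 in the 10 d overload pools, 10.05 and 9.95 in the 3 d inhibitor pools, 10.04 and 9.82 in the 3 d overload pools and 9.44 and 9.23 in the no overload pools. Psmd13 was at 6.94 and 6.98 in the 10 d inhibitor pools, 6.87 and 6.97 in the 10 d overload pools, 7.21 and 7.31 in the 3 d inhibitor pools, 7.23 and 7.33 in the 3 d overload pools and 6.72 and 6.68 in the no overload pools. For both, every overloaded pool was above both no overload pools and every 3 d pool was above every 10 d pool. Psmd8 was higher than with no overload by 0.66 ± 0.14 in the 3 d inhibitor group (limma, adjusted p = 0.0155) and by 0.59 ± 0.14 in the 3 d overload group (adjusted p = 0.0199). Without the first 3 d overload pool or the second no overload pool the call at 3 d of overload was lost. Psmd13 was higher by 0.56 ± 0.13 (limma, adjusted p = 0.0195) and 0.58 ± 0.13 (adjusted p = 0.0135) in the same comparisons, and the call at 3 d of overload was lost without the second 3 d overload pool and without each no overload pool. In the 3 d inhibitor group the Psmd8 call was lost without each 3 d inhibitor pool and without the second no overload pool, and the Psmd13 call without each pool of the groups compared.

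The remaining lid genes did not pass the test at 3 d. Psmd7, which encodes Rpn8, the inactive partner of Rpn11, differed from no overload by 0.30 ± 0.14 in the 3 d inhibitor group and by 0.31 ± 0.14 in the 3 d overload group. Psmd3 (Rpn3) differed by 0.41 ± 0.16 and 0.23 ± 0.16 in the same comparisons. Psmd6 (Rpn7) and Psmd12 (Rpn5) stood at 0.00 and -0.08 in the 3 d overload group, with 95% intervals of -0.27 to 0.27 and -0.35 to 0.20. Over the 8 lid genes 4 rose in each of the 3 d inhibitor and 3 d overload groups relative to no overload, where 7.71% and 9.31% of all genes were called higher. All 8 were above the median gene of the array. Of such brighter genes, tested alone, 34.3% and 40.6% were called in either direction in the same comparisons. The median change of the 8 lid genes was 0.49 with the inhibitor and 0.44 without it.

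In the base of the cap, which holds the ATPase ring and the large scaffold subunits, 6 ATPase and 3 other genes were measured. Of these, 2 rose in the 3 d inhibitor group and none in the 3 d overload group. Of all genes, 7.71% and 9.31% were called higher in those groups. The difference between the 3 d groups was called for no gene of the array. Psmc4, encoding the ATPase Rpt3, was at 8.93 and 8.86 in the 10 d inhibitor pools, 8.86 and 8.73 in the 10 d overload pools, 9.17 and 9.37 in the 3 d inhibitor pools, 9.21 and 9.03 in the 3 d overload pools and 8.55 and 8.73 in the no overload pools. Both 3 d groups lay above no overload without overlap. Its increase was 0.64 ± 0.15 in the 3 d inhibitor group (limma, adjusted p = 0.0217) and 0.48 ± 0.15 in the 3 d overload group (adjusted p = 0.0531). Psmd4, which encodes the ubiquitin receptor Rpn10, was at 8.59 and 8.57 in the 10 d inhibitor pools, 8.46 and 8.28 in the 10 d overload pools, 8.92 and 8.74 in the 3 d inhibitor pools, 8.53 and 8.61 in the 3 d overload pools and 8.18 and 8.36 in the no overload pools. It rose by 0.56 ± 0.14 in the 3 d inhibitor group (limma, adjusted p = 0.0301), against a difference of 0.30 ± 0.14 in the 3 d overload group (adjusted p = 0.195). The Psmc4 and Psmd4 calls were both lost without each pool of the groups compared, that of Psmd4 also without each 10 d inhibitor pool.

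The 5 other ATPase genes had changes of 0.15 (Psmc2) to 0.34 (Psmc5) in the 3 d inhibitor group and of -0.01 (Psmc2) to 0.21 (Psmc6) in the 3 d overload group, none called by its brightest probe set. Psmc2 was read by 2 probe sets that disagreed: the brighter one, used here, changed by -0.01 at 3 d of overload and by -0.01 at 10 d, while the dimmer one, at a mean of 4.55, changed by 0.64 and 0.85 (not called when all probe sets were tested by limma, with adjusted p of 0.0692 and 0.0685). In the 3 d inhibitor group the dimmer probe set rose by 0.75 (limma, adjusted p = 0.0485 over all probe sets), against 0.15 for the brighter one. The scaffold genes Psmd1 (Rpn2) and Psmd2 (Rpn1) stood at 0.18 and 0.30 in the 3 d inhibitor group and at 0.09 and 0.05 in the 3 d overload group.

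Of the 3 chaperones that assemble the base, Psmd5 (S5b) was at 7.70 and 7.72 in the 10 d inhibitor pools, 7.49 and 7.54 in the 10 d overload pools, 7.74 and 7.80 in the 3 d inhibitor pools, 8.10 and 7.83 in the 3 d overload pools and 7.39 and 7.37 in the no overload pools. Every overloaded pool was above both no overload pools, and the first 3 d overload pool was the highest. It rose by 0.59 ± 0.14 at 3 d of overload (limma, adjusted p = 0.0182), a call lost without that pool and without each no overload pool, and the difference in the 3 d inhibitor group was 0.39 ± 0.14 (adjusted p = 0.0968). Psmd10 (gankyrin) differed from no overload by 0.49 ± 0.15 with the inhibitor and 0.43 ± 0.15 without it at 3 d (limma, adjusted p = 0.0652 and 0.0893). Psmd9 (p27) stood at -0.26 and -0.27, on the other side of 0.

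**Figure D2:**
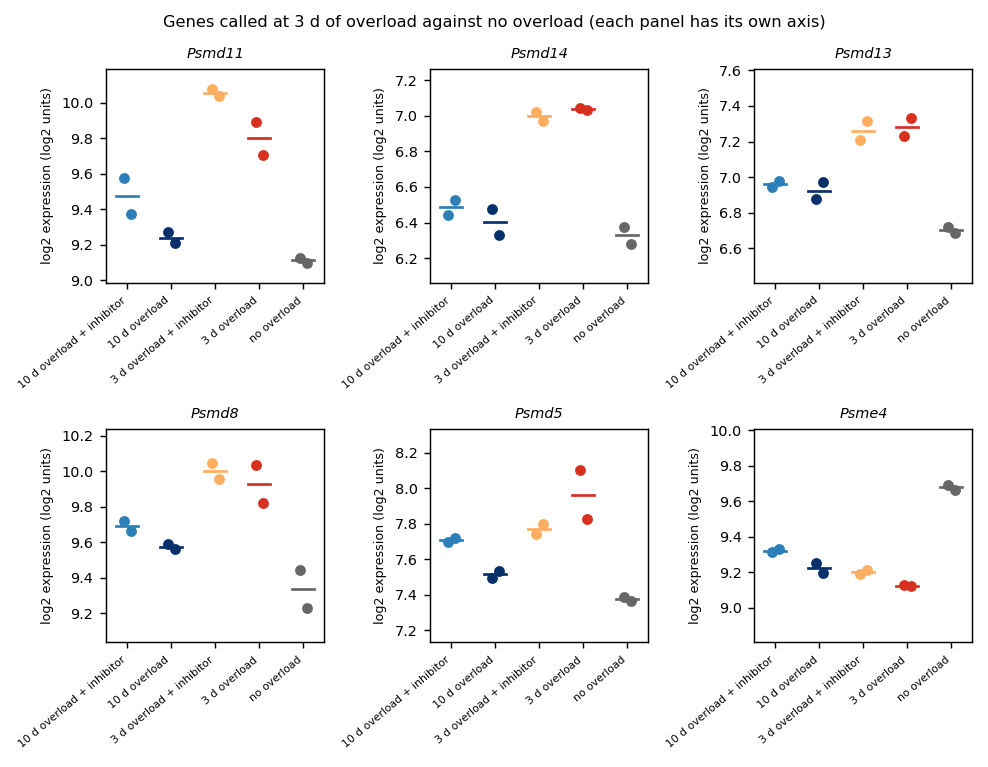
Log2 expression in each pool (points; the line is the mean of the 2 pools of a group) of the 6 genes that passed the test at 3 d of overload against no overload, with the groups ordered from 10 d inhibitor to no overload. Psmd11, Psmd14, Psmd13 and Psmd8 are highest in the 3 d groups, Psmd5 has 1 high 3 d overload pool, and Psme4 is highest with no overload.

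In the 20S core 2 of 14 genes rose in the 3 d inhibitor group and none in the 3 d overload group. The shares of all genes called higher were 7.71% and 9.31%. In the 3 d overload group the changes ran from -0.11 (Psmb2) to 0.37 (Psma3), and the median was 0.04. In the 3 d inhibitor group 12 of the 14 were above 0 and the median was 0.21, where 49.5% of all genes were above 0 with a median of -0.004. Psma3, an alpha ring subunit, was at 9.06 and 9.10 in the 10 d inhibitor pools, 9.0 and 8.87 in the 10 d overload pools, 9.44 and 9.46 in the 3 d inhibitor pools, 9.40 and 9.31 in the 3 d overload pools and 9.0 and 8.98 in the no overload pools. It rose by 0.46 ± 0.12 in the 3 d inhibitor group (limma, adjusted p = 0.0412) beside a difference of 0.37 ± 0.12 in the 3 d overload group (adjusted p = 0.0795). Psma7, also of the alpha ring, was at 8.92 and 8.80 in the 10 d inhibitor pools, 8.57 and 8.61 in the 10 d overload pools, 8.86 and 8.96 in the 3 d inhibitor pools, 8.72 and 8.63 in the 3 d overload pools and 8.33 and 8.43 in the no overload pools. Every overloaded pool was above both no overload pools, and the rise in the 3 d inhibitor group was 0.53 ± 0.13 (limma, adjusted p = 0.0251), against 0.30 ± 0.13 in the 3 d overload group (adjusted p = 0.162). The Psma7 call was lost without each pool of the groups compared, and the Psma3 call was kept only without each 10 d overload pool. Counted over all 44 genes, 8 were higher (18.2%) and 2 lower (4.55%) in the 3 d inhibitor group than with no overload, where 7.71% and 6.51% of all genes were called (22.7% of members and 14.2% of all genes in either direction). Among genes above the median gene, tested alone, 35% of the members and 34.3% of all genes were called, so the count is near the background for brighter genes. With limma's trend and robust prior the shares were 36.4% and 18.1%. The 2 groups were set against the same no overload pools, so their changes are not independent.

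**Figure D3:**
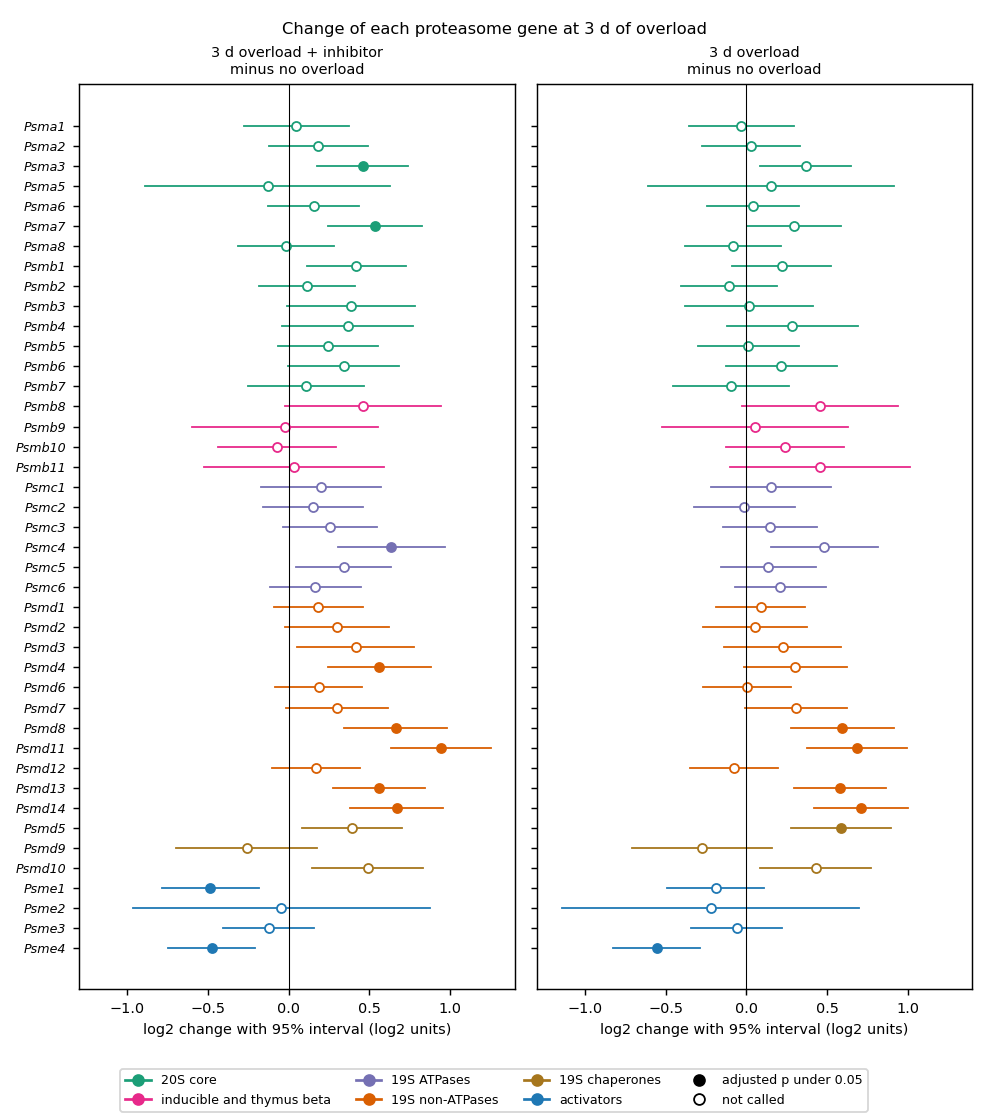
Log2 change against no overload with its 95% interval for each of 42 proteasome genes, in the 3 d inhibitor group (left) and the 3 d overload group (right), coloured by subunit group; filled points passed the test. Filled points to the right of 0 lie mostly among the 19S non-ATPase genes, and Psme4 is filled to the left of 0 in both panels.

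The standard catalytic genes did not pass the test in any of the 10 comparisons. Psmb5, the chymotrypsin-like subunit, was at 6.98 and 6.84 in the 10 d inhibitor pools, 6.86 and 6.70 in the 10 d overload pools, 7.06 and 6.95 in the 3 d inhibitor pools, 6.83 and 6.72 in the 3 d overload pools and 6.70 and 6.82 in the no overload pools. Psmb6, the caspase-like subunit, was at 8.12 and 8.11 in the 10 d inhibitor pools, 7.79 and 7.82 in the 10 d overload pools, 8.03 and 8.23 in the 3 d inhibitor pools, 8.17 and 7.84 in the 3 d overload pools and 7.84 and 7.74 in the no overload pools. Psmb7, the trypsin-like subunit, was at 9.04 and 9.0 in the 10 d inhibitor pools, 9.07 and 8.88 in the 10 d overload pools, 9.01 and 9.08 in the 3 d inhibitor pools, 9.03 and 8.66 in the 3 d overload pools and 8.97 and 8.90 in the no overload pools. Their pools overlapped between the 3 d overload and no overload groups for Psmb5 and Psmb7, and the changes at 3 d of overload were 0.01 (95% interval -0.30 to 0.32), 0.21 (-0.13 to 0.56) and -0.09 (-0.45 to 0.26) for Psmb5, Psmb6 and Psmb7.

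The interferon-inducible catalytic genes did not pass the test either. Psmb8, which replaces Psmb5, was at 5.22 and 4.96 in the 10 d inhibitor pools, 5.12 and 5.29 in the 10 d overload pools, 5.17 and 5.26 in the 3 d inhibitor pools, 5.42 and 5.0 in the 3 d overload pools and 5.01 and 4.50 in the no overload pools. The second no overload pool was the lowest of all 10, and the change from no overload was 0.46 ± 0.21 at 3 d of overload (limma, adjusted p = 0.196) and 0.45 ± 0.21 at 10 d (adjusted p = 0.276). Psmb10, which replaces Psmb7, was at 5.72 and 6.10 in the 10 d inhibitor pools, 5.85 and 5.68 in the 10 d overload pools, 5.98 and 6.09 in the 3 d inhibitor pools, 6.31 and 6.38 in the 3 d overload pools and 6.17 and 6.05 in the no overload pools. Its 3 d overload pools were the highest, and 10 d of overload differed from 3 d by -0.58 ± 0.16 (limma, adjusted p = 0.0736). Psmb9, which replaces Psmb6, was dim, at 3.41 and 3.18 in the 10 d inhibitor pools, 3.02 and 3.58 in the 10 d overload pools, 3.62 and 2.95 in the 3 d inhibitor pools, 3.47 and 3.25 in the 3 d overload pools and 3.34 and 3.27 in the no overload pools. Its pools overlapped in every comparison, and its 95% interval at 3 d of overload, -0.53 to 0.63, leaves room for a change of either sign. Psmb11 was at 1.37 and 2.13 in the 3 d overload pools against 1.25 and 1.33 with no overload, so 1 pool was high, and without the other 3 d overload pool the change of 0.84 was called (limma, adjusted p = 0.0465).

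Tap1, the peptide transporter gene of class I antigen presentation, starts 226 bases from Psmb9 on chromosome 17 and is read in the opposite direction, so that their start windows share 275 bases. Tap1 was at 4.63 and 4.64 in the 10 d inhibitor pools, 4.92 and 5.05 in the 10 d overload pools, 4.72 and 4.38 in the 3 d inhibitor pools, 4.94 and 4.98 in the 3 d overload pools and 4.11 and 4.08 in the no overload pools. No overloaded pool overlapped the no overload pools. Tap1 rose by 0.86 ± 0.15 at 3 d of overload (limma, adjusted p = 0.00467) and by 0.89 ± 0.15 at 10 d (adjusted p = 0.0144, lost without the second 10 d overload pool and without each no overload pool). It differed by 0.45 ± 0.15 and 0.54 ± 0.15 in the 3 d and 10 d inhibitor groups, which were not called. Over the 14 measured genes of interferon gamma signalling and antigen processing, 2 rose at 3 d of overload (Tap1, and Irf8 by 1.2) and 1 fell (Jak2, -0.81), where 9.31% and 8.18% of all genes were called higher and lower. In the 3 d inhibitor group Jak2 (-0.71) and the receptor gene Ifngr2 (-0.45) fell, where 6.51% of all genes were called lower. Tap1 and Jak2 at 3 d of overload were called under all 16 alternative settings. The Jak2 call in the 3 d inhibitor group was lost without the first pool of either group compared. Irf8 was lost whichever pool was left out other than those of the 3 d inhibitor group, and Ifngr2 was lost whichever pool was left out. Ifng itself was near the floor, with group means of 1.81 at 3 d of overload and 1.61 with no overload.

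Markers of other cells moved beside these genes. All 12 macrophage markers rose at 3 d of overload against no overload (median change 3.04; Cd68 by 22.6-fold), and their summed log2 level was 68.6 to 69.8 in the 10 d inhibitor pools, 72.1 to 79.2 in the 10 d overload pools, 83.4 to 86.7 in the 3 d inhibitor pools, 89.0 to 93.3 in the 3 d overload pools and 51.0 to 54.8 with no overload. All 7 markers of dividing cells rose as well, with a median change of 3.53 and sums of 31.5 to 32.1 in the 3 d inhibitor pools, 38.9 to 41.3 in the 3 d overload pools and 15.9 to 17.0 with no overload. Of 8 fibroblast markers 6 rose, of 8 neutrophil markers 2 rose, and of 7 endothelial markers 2 fell. In that comparison 9.31% of all genes were called higher and 8.18% lower. Of the 11 lymphocyte markers none was called. Their sums were 15.0 to 15.9, 14.6 to 17.0, 15.8 to 17.1, 14.9 to 16.2 and 15.5 to 15.8 in the same order of groups. Of 12 muscle fibre markers 3 fell at 3 d of overload, and their sums were 138.6 in both 10 d inhibitor pools, 138.5 to 139.0, 134.5 to 135.6, 135.5 to 136.2 and 138.4 to 138.6. The macrophage and dividing-cell sums were highest in the 3 d overload pools. Cd68 itself went the other way, with means of 9.98 in the 3 d inhibitor group and 9.62 in the 3 d overload group. Of the 5 members called higher at 3 d of overload, Psmd14, Psmd13 and Psmd5 had their highest group mean in the 3 d overload group, and Psmd11 and Psmd8 in the 3 d inhibitor group. In pooled whole-muscle RNA, more cells of a type and more RNA per cell cannot be told apart. The part of cell make-up in the changes of the proteasome genes was not tested.

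The first 3 d overload pool stood apart from the second in neutrophil genes. Mpo was at 5.02 and 1.33 and Elane at 5.21 and 1.37 in the 2 pools, and the summed level of 8 neutrophil markers was 38.5 in the first and 21.4 in the second, against 17.0 in both no overload pools. Without that first pool 3 members were called higher at 3 d of overload and none lower, in place of 5 and 1. The 3 were Psmd14, Psmd13 and the dim Psmb11.

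**Figure D4:**
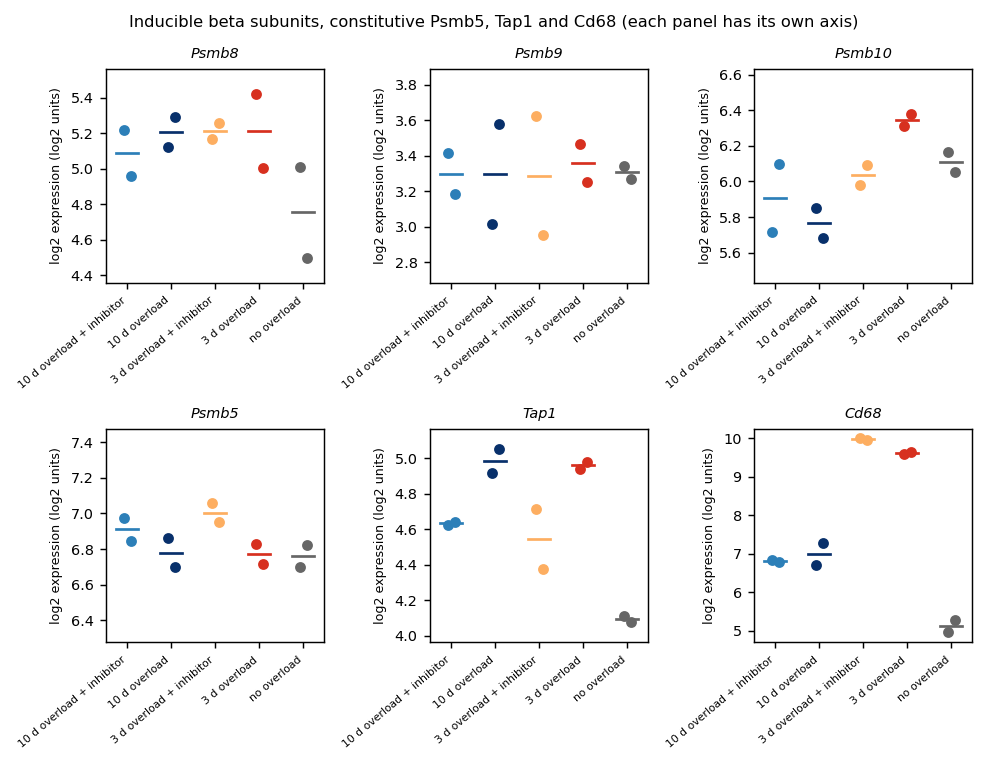
Log2 expression in each pool (points; lines are group means) of the interferon-inducible catalytic genes Psmb8, Psmb9 and Psmb10, the standard catalytic gene Psmb5, the antigen transporter gene Tap1 and the macrophage marker Cd68. Cd68 and Tap1 separate every overloaded group from no overload, and the Psmb genes do not.

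Among the 4 activator genes 1 fell in the 3 d overload group and 2 in the 3 d inhibitor group, where 8.18% and 6.51% of all genes were called lower, and none rose. Psme4 encodes PA200, a cap that opens the core without ubiquitin. Its level was 9.31 and 9.33 in the 10 d inhibitor pools, 9.26 and 9.20 in the 10 d overload pools, 9.19 and 9.21 in the 3 d inhibitor pools, 9.13 and 9.12 in the 3 d overload pools and 9.69 and 9.66 in the no overload pools. Both no overload pools were above all 8 overloaded pools. The change against no overload was -0.48 ± 0.12 in the 3 d inhibitor group (limma, adjusted p = 0.0295) and -0.55 ± 0.12 in the 3 d overload group (adjusted p = 0.0127), each lost when a pool of either compared group was left out. At 10 d it was -0.36 ± 0.12 with the inhibitor and -0.45 ± 0.12 without it, and neither passed (limma, adjusted p = 0.199 and 0.0659).

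Psme1, the alpha subunit of PA28, was at 6.65 and 6.73 in the 10 d inhibitor pools, 6.85 and 6.78 in the 10 d overload pools, 6.51 and 6.56 in the 3 d inhibitor pools, 6.94 and 6.73 in the 3 d overload pools and 7.05 and 7.0 in the no overload pools. Its 3 d inhibitor pools were the lowest, -0.48 ± 0.13 from no overload (limma, adjusted p = 0.0419), a call kept only without each 3 d overload pool, and the 3 d overload change of -0.19 ± 0.13 was not called. Psme2, the beta subunit, varied between pools of 1 group by up to 0.98 log2 units, and Psme3, PA28 gamma of the nucleus, kept within 6.09 and 6.32 in its group means. By the probe sets used, all 4 activator changes were below 0 in both 3 d comparisons, with medians of -0.30 with the inhibitor and -0.21 without it. A brighter Psme2 probe set, not used because it carries several symbols, changed by -0.27 with the inhibitor and 0.15 without it, neither called. Psme3ip1, a PA28 gamma-interacting protein, and Psmc3ip, a meiotic recombination factor, stood at -0.34 and -0.01 at 3 d of overload and were not called in any comparison.

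At 10 d of overload no member passed the test against no overload. Of all genes 5.13% did, 3.9% higher and 1.23% lower. An unadjusted p under 0.05 was found for 2 of the 44 members and for 4497 of the 22180 genes. The median change was 0.00 over the members. The 10 d inhibitor group also had none called, where 1.56% of all genes were (1.13% higher and 0.428% lower). There 7 of the 44 members had an unadjusted p under 0.05, as did 3355 of the 22180 genes. Between 10 d and 3 d of overload 2 members (4.55%) fell and none rose, where 6.08% of all genes were called, 2.7% higher and 3.38% lower. Psmd14 changed by -0.64 ± 0.13 (limma, adjusted p = 0.0245) and Psmd11 by -0.56 ± 0.14 (adjusted p = 0.0493). Under the inhibitor 1 member (2.27%) fell, where 4.65% of all genes were called, 1.98% higher and 2.66% lower. This was Psmd11, at -0.58 ± 0.14 (limma, adjusted p = 0.0498). Both Psmd11 calls were lost whichever pool was left out, and the Psmd14 call was lost without each pool of the groups compared. Of the 44 changes between 10 d and 3 d, 12 were above 0 without the inhibitor and 7 with it, where 50.8% and 46.6% of all genes were above 0.

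The PDGF inhibitor changed no proteasome gene past the test at either time. At 3 d no gene of the array was called, and no member had an unadjusted p under 0.05, where 2011 of the 22180 genes had one. At 10 d 0.104% of all genes were called (0.0225% higher and 0.0812% lower). Again no member had an unadjusted p under 0.05, where 2352 of all genes had one. For the mean over both times 0.289% of genes were called (0.0631% higher and 0.225% lower). In that mean 4 of the 44 members had an unadjusted p under 0.05, as did 2817 of the 22180 genes. The difference between the 10 d and 3 d inhibitor effects was called for no gene of the array. The largest mean effects among the core and cap were 0.25 ± 0.09 for Psma7 (limma, adjusted p = 0.284) and 0.25 ± 0.10 for Psmd11 (adjusted p = 0.335). The 95% intervals of the mean effect over the 25 core and cap non-ATPase genes lay between -0.41 and 0.66, both bounds from the dim Psma5.

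In the core 13 of 14 differences were above 0 at 3 d and 13 of 14 at 10 d, with medians of 0.14 and 0.09. Of all genes, 54.4% and 51.6% were above 0 with medians of 0.03 and 0.01. The 14 include the dim Psma8 and Psma5, and Psma5 stood at -0.28 at 3 d and 0.54 at 10 d. They leave out Psma4, whose brighter probe set, which carries a second symbol, stood at 0.15 and 0.05. Of the 11 non-ATPase cap genes 8 were above 0 at 3 d and all 11 at 10 d, with medians of 0.18 and 0.11. Leaving out 1 pool at a time gave 11 to 13 core genes above 0 at 3 d and 9 to 13 at 10 d, and 8 to 9 and 9 to 11 cap genes. Genes of 1 complex share their pools, so these counts are descriptions without a test. In group means, 25 of the 42 subunit, chaperone and activator genes were highest in the 3 d inhibitor group, 12 of the 14 core genes among them, and 8 in the 3 d overload group, where 21.2% and 19.1% of all genes were highest in those groups. The inducible genes Psmb8, Psmb9 and Psmb10 had mean inhibitor effects of -0.06, -0.04 and -0.08, none called. The mean for Psmb10 joins opposite signs. Its group means with and without the inhibitor were 6.04 and 6.35 at 3 d, and 5.91 and 5.77 at 10 d. Over these genes and Psmb11 the median difference was -0.19 at 3 d and -0.0009 at 10 d. The mean inhibitor effects of the inducible activator genes Psme1 and Psme2 were -0.21 and 0.24, also not called. The brighter Psme2 probe set with several symbols had the other sign, at -0.60 (limma, adjusted p = 0.515 over all probe sets). With the inhibitor 5 of 7 dividing-cell markers fell in the mean over both times (median change of the 7, -1.20), where 0.225% of all genes were called lower, with sums of 20.3 to 23.3 in the 10 d inhibitor pools against 29.5 to 30.3 in the 10 d overload pools. All 8 fibroblast markers were below 0 in that mean (median -0.78), none called. The macrophage sums were lower with the inhibitor at both times and the neutrophil sum at 10 d was higher, 29.0 to 30.4 in the 10 d inhibitor pools against 14.7 to 15.4 in the 10 d overload pools. The part of these markers in the signs of the proteasome genes was not tested.

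**Figure D5:**
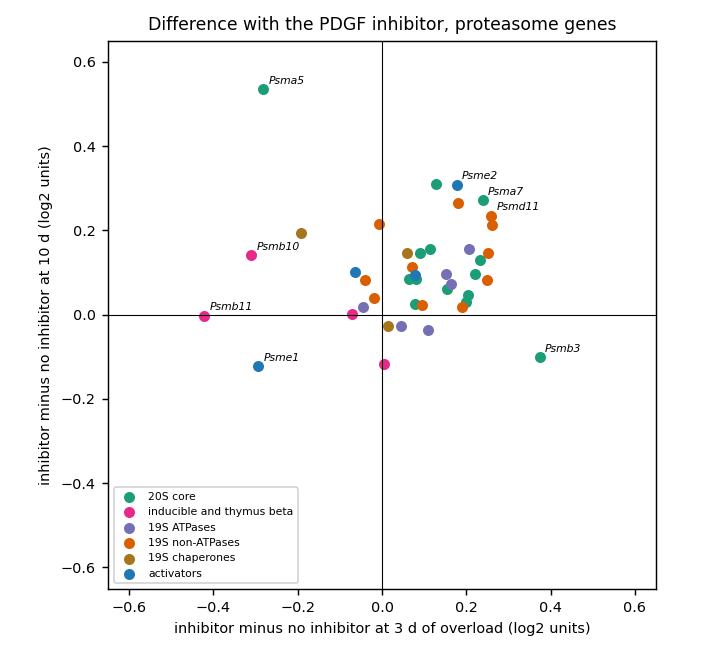
Log2 difference between inhibitor and no inhibitor at 3 d of overload (horizontal axis) and at 10 d (vertical axis) for 42 proteasome genes, coloured by subunit group. Most core and 19S non-ATPase points lie at the upper right, and no point passed the test at either time.

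The genes that build, regulate or feed the proteasome were followed as 3 lists. Of 13 measured assembly factors and partners, 2 fell at 3 d of overload, where 8.18% of all genes were called lower: Ecpas, a scaffold that holds cap and core together, at 8.76 and 8.74 in the 3 d overload pools against 9.34 and 9.41 with no overload (-0.62 ± 0.13, limma, adjusted p = 0.0102), and Zfand5, a proteasome-binding zinc finger protein, at 8.89 and 8.91 against 9.50 and 9.47 (-0.58 ± 0.13, adjusted p = 0.0136). The Ecpas call was lost without each 3 d overload pool and without the second no overload pool, and the Zfand5 call without each pool of the groups compared. None of the 13 was called in the 3 d inhibitor group. Of 7 factors of the proteasome recovery response, in which subunit transcription is raised, none was called at 3 d. Nfe2l1, the factor that raises subunit transcription when proteasomes fail, was at 7.68 and 7.58 in the 3 d overload pools against 7.87 and 8.09 with no overload (-0.35, limma, adjusted p = 0.136). Of 9 ubiquitin pathway and shuttle genes 1 rose in the 3 d inhibitor group, where 7.71% of all genes were called higher. This was Ubqln1, a shuttle factor, by 0.61 ± 0.15 (limma, adjusted p = 0.028), beside 0.37 in the 3 d overload group. The call was lost without each 3 d inhibitor pool and without the first no overload pool.

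Of 6 genes of muscle atrophy, ubiquitin ligases and their factors, 3 fell at 3 d of overload against no overload and 3 were higher at 10 d than at 3 d of overload. Of all genes, 8.18% and 2.7% were called in those directions. Fbxo32, which encodes atrogin-1, was at 8.89 and 9.05 in the 10 d inhibitor pools, 9.46 and 9.23 in the 10 d overload pools, 9.51 and 9.14 in the 3 d inhibitor pools, 8.34 and 8.63 in the 3 d overload pools and 9.99 and 10.04 in the no overload pools. It was lower than with no overload in every overloaded pool, with changes of -1.53 ± 0.18 at 3 d of overload (limma, adjusted p = 0.000873), -0.69 ± 0.18 in the 3 d inhibitor group (adjusted p = 0.034) and -1.04 ± 0.18 in the 10 d inhibitor group (adjusted p = 0.0283). At 10 d of overload the change of -0.67 ± 0.18 did not pass the test (limma, adjusted p = 0.0691). Fbxo21 and Foxo1, a ligase subunit and the transcription factor that drives atrophy genes, changed by -0.84 ± 0.19 and -0.67 ± 0.13 at 3 d of overload (limma, adjusted p = 0.0171 and 0.0098). Between 10 d and 3 d of overload Fbxo32, Fbxo21 and Foxo1 rose by 0.86, 0.82 and 0.61 (limma, adjusted p = 0.0274, 0.0441 and 0.0343). Trim63, which encodes MuRF1, stood at -0.10 at 3 d of overload and was not called. The Fbxo32 call at 3 d of overload held under all 16 alternative settings, while its calls in the inhibitor groups and every call of these 3 genes between 10 d and 3 d were lost without at least 1 pool of the groups compared. At 3 d of overload Fbxo21 was lost without each pool of the groups compared, and Foxo1 without each 3 d overload pool and without the second no overload pool.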

How the data were processed

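Expression in the plantaris was read with the Affymetrix Mouse Gene 2.1 ST array. The deposited values are log2 expression that the authors made by RMA, with oligo and limma named and no versions given, per the submitters' processing notes. The labels name 2 labelling kits for the same arrays, GeneChip WT PLUS and NuGEN Ovation PicoSL, and which was used could not be settled. Of 41345 probe sets, 23521 carry 1 gene symbol, 1814 several and 16010 are not listed in the platform annotation. The brightest probe set was kept for each of 22180 genes. All 10 arrays were fitted together with 1 coefficient per group in limma 3.58.1 (R 4.3.3), with no block, and p-values were adjusted over all genes of each of 10 comparisons (Benjamini-Hochberg, called under 0.05). The fit had 5 residual and 3.58 prior degrees of freedom. An exact permutation test of 2 pools against 2 cannot go below 0.333, so none is given. The precision is limited by the number of arrays. Members and lists were chosen with earlier results of these data known. Catalytic subunits, members called in any comparison and pathway genes called, up to 4 for each list and comparison, are named, and other members are described by group. The code was tested on simulated data. Alternatives were another array centring, genes above the median gene, the mean of a gene's probe sets, all probe sets, limma's trend with a robust prior, only the groups compared, and each pool left out. Start sequences come from RefSeq (GRCm38.p6).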

Additional observations from a re-analysis of the deposited data

How the results depend on the processing

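Each comparison was repeated under 6 other settings and with each pool left out in turn. Of 304 alternative values for the 19 calls of members, 197 stayed called, 107 were lost and none changed sign. The same settings for 17 called results of pathway genes, added after seeing the data, gave 184 values still called and 88 not, none with the other sign. At 3 d of overload against no overload 6 members were called, with 10 among genes above the median gene, 13 with limma's trend and robust prior, 2 in a fit of only the groups compared, and 2 to 6 with a pool left out (3 without the first 3 d overload pool or the first no overload pool, 2 without the second no overload pool). In the 3 d inhibitor group against no overload, 10 were called, with 4 when all probe sets were tested, 16 with the trend, 1 in a fit of only the groups compared, and 1 to 9 with a pool left out (1 without the first 3 d inhibitor pool, 2 without the second, 3 without the first no overload pool, 1 without the second). Between 10 d and 3 d of overload 2 were called, with 1 at a common array median, 8 among genes above the median gene, 0 with all probe sets, 9 with the trend, 0 with only the groups compared, and 0 to 1 with a pool left out. Under the inhibitor 1 was called, with 3 among genes above the median gene, 0 with the mean of a gene's probe sets, 0 with all probe sets, 4 with the trend, 0 with only the groups compared and 0 with any pool left out. At 10 d of overload against no overload none was called, with 1 among genes above the median gene and 1 with the trend. In the 10 d inhibitor group none was called, with 1 among genes above the median gene and 4 with the trend. With the trend, 29.5% of members and 21% of all genes were called at 3 d of overload. In the 3 d inhibitor group these shares were 36.4% and 18.1%, and between 10 d and 3 d of overload 20.5% and 11.1%. Under the inhibitor they were 9.09% and 9.07%. At 10 d they were 2.27% and 9.54% without the inhibitor and 9.09% and 4.82% with it. Among genes above the median gene the shares were 25% and 40.6% at 3 d of overload. There they were 35% and 34.3% in the 3 d inhibitor group and 20% and 20.7% between 10 d and 3 d of overload. Fits of fewer groups have fewer degrees of freedom by construction, and for the other settings the cause was not tested. Counts of all genes called moved as well: at 3 d of overload 3881 became 2146 to 3850 with a pool left out, 4662 with the trend and 2863 with only the groups compared, and at 10 d 1138 became 259 to 1232, 2115 and 31. No paired analysis was possible because the labels give no replicate numbers, and pool numbers are names only. With 2 pools a group and a median standard error of 0.137, small changes of single genes could not be told from the spread.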
